A study of Mus musculus with 12 samples.

Results

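The 37 genes described here are the laminin chains and the integrin subunits of the mouse, taken from a count table of 45706 genes. They are 11 laminin chains (5 alpha, 3 beta and 3 gamma) and 26 integrin subunits (18 alpha and 8 beta), chosen by their symbols, with integrin-binding proteins that share part of the name left out. RNA was sequenced from 4 groups of cells with 3 biological replicates each, 12 libraries in all, and the cells of every group came from *Sox1*-GFP embryonic stem cells, in which GFP is knocked into *Sox1*. NPC are Sox1-negative glial progenitors, given as Baseline and not sorted. NPC(+) are Sox1-positive glial progenitors, given as sorted. In the study these cells carried dCas9-VP64, a nuclease-dead Cas9 joined to a transcriptional activator, with guide RNAs to the *Sox1* promoter, and positive cells were collected by their GFP. The dCas9-VP64 lines were grown from single cells, and which line gave which library, and if the NPC libraries held dCas9-VP64 or guides, is not stated in the sources used here. NSC are neuroepithelial cells that were not sorted, and NR are neuroepithelial cells sorted by GFP and given as neural rosettes. NPCs were grown in the study on dishes coated with laminin, in medium with added laminin protein, EGF and bFGF. The strain is given as C57BL/6 throughout, and the sources used here give no age or sex.

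Laminins are the main structural proteins of basement membranes. Each secreted laminin is a trimer of 1 alpha, 1 beta and 1 gamma chain, and the alpha chain carries the domains at its end that cell surface receptors bind. Integrins are receptors made of 1 alpha and 1 beta subunit that span the membrane and link the matrix to the actin cytoskeleton. The alpha subunits encoded by *Itga3*, *Itga6* and *Itga7* pair with beta-1 to form laminin receptors, alpha-6 also pairs with the beta-4 subunit, and other subunits bind fibronectin, vitronectin, collagens or receptors on other cells. In the developing neural tube, radial cells anchor to a laminin-rich basement membrane through integrins, and neural progenitors in culture are commonly grown on laminin.

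The libraries held between 3407066 (NPC(+)) and 43095688 (NSC) counts, and 3 counts, taken as the floor, were worth 0.0671 to 0.869 CPM (counts per 1000000 of the effective library size). The targeted gene, *Sox1*, measured 4.83, 6.0 and 5.43 CPM in NPC and 20.3, 20.9 and 21.7 in NPC(+). In NSC it stood at 48.6, 64.9 and 51.8 and in NR at 4.62, 20.001 and 19.2. The GFP-sorted NR libraries thus held less *Sox1* RNA than the unsorted NSC libraries. They also held 2894, 1529.7 and 2251 CPM summed over 6 pluripotency genes such as *Pou5f1* and *Nanog*, against 152, 52 and 137 in NSC and 6.68 to 10.01 in NPC and NPC(+), and all 6 of those genes were over the floor in every NR library. These values go against the label of the NR libraries, which are called the libraries labelled NR below. The 6 genes of a mesenchyme list, *Col1a1* among them, summed to 1788, 552 and 1778 CPM in NSC, 4627, 633 and 3236 in NR and 34.1 to 40.1 in the other libraries, so that the libraries numbered 2 of NSC and NR stood below the others. Of the other marker lists, neural progenitor genes summed to 1733 to 2067 CPM in NPC and NPC(+), 2837 to 2926 in NSC and 885 to 1636 in NR. Astrocyte and glial genes summed to 2488 to 2792, 1170.2 to 1226, 51.5 to 57.3 and 40.8 to 48.7 CPM in NPC, NPC(+), NSC and NR. The lower sum in NPC(+) was not shared by all 4 genes of that list. In NPC(+) against NPC, 1 was called higher and 1 lower, with a median log2 fold change of 0.33 (44.3% of all genes were called). Neuron genes summed to 279.9 to 581 CPM over all libraries, but that sum hid opposite changes. By the rule given below, 4 of the 5 neuron genes were called higher and 1 lower than in NPC, both in NSC and in NR. Their median log2 fold change was 5.52 in NSC and 4.64 in NR, where 78.1% and 79.8% of all genes were called. Endoderm genes summed to 23 to 30.4 CPM in NPC, 39.1 to 46.6 in NPC(+), 69 to 98.2 in NSC and 94.7 to 111 in NR. In bulk RNA of this kind, fewer cells of a type and less RNA per cell cannot be told apart.

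Of the 37 genes, 33 passed the filter on low counts. *Itga2*, *Itgad*, *Itgax* and *Itgb6* did not, and reached at most 0.925 CPM (*Itgad*) as a group mean. A gene was called when its adjusted p was under 0.1 by the quasi-likelihood test of edgeR, adjusted after Benjamini and Hochberg over all 17003 genes tested. By that rule 30 of the 33 members were called in at least 1 of 4 comparisons, 3 in all of them (*Lamb1*, *Lamb2* and *Itga9*) and 3 in none (*Itga1*, *Itga2b* and *Itgb1*). NPC(+) differed from NPC in 10 members, 5 higher and 5 lower, or 30.3% of the members tested, against 44.3% of all genes tested (21.6% higher and 22.7% lower). NSC differed from NPC in 23 members, 16 higher and 7 lower (69.7% against a background of 78.1%, 44.4% higher and 33.7% lower). The libraries labelled NR differed from NPC in 28, 21 higher and 7 lower (84.8% against 79.8%, 45.6% higher and 34.1% lower), and from NSC in 20, 17 higher and 3 lower (60.6% against 56.6%, 30.0% higher and 26.6% lower). The comparisons with NPC use the same 3 NPC libraries. Without the libraries numbered 2 of NSC and NR, which stand apart as given above, 9 members were called higher and 6 lower in NPC(+). In that fit 16 and 8 were called in NSC, 21 and 7 in NR against NPC, and 22 and 5 in NR against NSC. The share of all genes called in that fit is not given here, so these counts cannot be set against a background. With all libraries, the share of members called was below the background in the first 2 comparisons. In the last 2 it was near the background and slightly above it. None of these differences from the background was tested. Values by library are given for members that reached 5 CPM in a group and were called with more than a 2-fold change, and for the best known laminin trimers and laminin receptors. *Lamb3*, *Lamc3*, *Itgav*, *Itgb5*, *Itga1*, *Itga10*, *Itga11* and the blood cell integrins besides *Itgb7* fall outside that rule and were named after their values were seen.

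Promoters of 3 members are shown because these genes carry the changes described below in each direction and because their RefSeq start lies at or just before the start of the gene model used. *Itga8* RNA was higher in NPC(+), NSC and the libraries labelled NR than in NPC, *Itga4* RNA was lower in each, and *Lama5* was the main alpha chain of NPC. Each run is the 250 bases before the RefSeq start in build GRCm38.p6, written 5′ to 3′ on the gene's strand. Capitals mark ACAAT or its reverse complement ATTGT, letters found in the binding motif of SOX factors, searched on both strands. *Itga8* (chr2:12301945-12302194, minus strand) holds 1 match that begins 205 bases before the start, *Itga4* (chr2:79255176-79255425, plus strand) and *Lama5* (chr2:180225860-180226109, minus strand) hold none, and 27.7% of all 32851 promoters of this length in the RefSeq table hold at least 1. The *Itga8* and *Lama5* stretches have 18 and 19 CG dinucleotides, counts of 18 or more being found in 21.7% of promoters, and *Itga4* has 6, the median over all promoters. The promoter of *Itgb5*, whose RNA was lower in NPC(+) than in NPC, also met these terms and is not shown. It holds no match and 18 CG dinucleotides.
Itga8: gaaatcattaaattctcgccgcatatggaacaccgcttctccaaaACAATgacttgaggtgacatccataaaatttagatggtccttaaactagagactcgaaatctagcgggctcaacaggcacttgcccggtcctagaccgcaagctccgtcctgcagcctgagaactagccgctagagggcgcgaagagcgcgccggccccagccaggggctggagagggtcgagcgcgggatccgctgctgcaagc
Itga4: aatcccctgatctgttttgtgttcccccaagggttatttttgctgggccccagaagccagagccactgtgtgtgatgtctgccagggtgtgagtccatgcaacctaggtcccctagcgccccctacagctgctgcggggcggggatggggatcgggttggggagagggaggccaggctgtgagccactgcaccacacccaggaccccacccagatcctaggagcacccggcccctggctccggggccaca
Lama5: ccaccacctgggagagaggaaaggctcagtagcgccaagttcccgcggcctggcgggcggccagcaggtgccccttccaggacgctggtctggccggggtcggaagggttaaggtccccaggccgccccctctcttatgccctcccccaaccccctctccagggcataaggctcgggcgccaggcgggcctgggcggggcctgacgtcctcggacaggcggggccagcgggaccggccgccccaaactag

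Among the laminin alpha chains, *Lama5* held nearly all of the RNA in NPC and NPC(+), and *Lama1* held most of it in NSC. *Lama5* (ENSMUSG00000015647, chr2:180176373-180225859, build GRCm38 as for all coordinates) encodes alpha-5, the broadly expressed chain of many mature basement membranes. It measured 98.3, 120.3 and 118 CPM in NPC and 109, 111 and 116 in NPC(+). NSC had 24.5, 14.4 and 18.3 and NR 52.7, 38.1 and 37.8. NPC and NPC(+) overlapped, and every NSC and NR library was below both. It was 5.85-fold lower in NSC than in NPC (log2 fold change -2.55 ± 0.18 (SE), adjusted p = 2.10e-08), 2.62-fold lower in NR than in NPC (log2 fold change -1.39 ± 0.17 (SE), adjusted p = 5.66e-06), and 2.23-fold higher in NR than in NSC (log2 fold change 1.16 ± 0.17 (SE), adjusted p = 1.21e-04). Between NPC(+) and NPC its log2 fold change was 0.00 ± 0.17 (SE).

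*Lama1* (ENSMUSG00000032796, chr17:67697259-67822647) encodes alpha-1, the chain of the first embryonic basement membranes. Its values were 1.43, 0.977 and 2.3 CPM in NPC and 1.16, 2.98 and 1.5 in NPC(+). The NSC libraries had 94.2, 52.6 and 65.7 and the NR libraries 17.1, 49.4 and 23.4, so all NSC and NR libraries stood above all NPC and NPC(+) libraries, and NR below NSC. The difference from NPC was 47.8-fold in NSC (log2 fold change 5.58 ± 0.47 (SE), adjusted p = 1.29e-07) and 20.3-fold in NR (log2 fold change 4.34 ± 0.47 (SE), adjusted p = 1.51e-06). NR was 2.35-fold lower than NSC (log2 fold change -1.23 ± 0.32 (SE), adjusted p = 0.00612). Without the libraries numbered 2 the last log2 fold change was -1.96. NPC(+) and NPC did not pass the test for *Lama1* (log2 fold change 0.44 ± 0.70 (SE), adjusted p = 0.681). Counted as RPKM, which is CPM divided by the kilobases of exon, the 5 alpha chains together came to 10.2 ± 1.11 in NPC and 10.2 ± 0.319 in NPC(+), against 10.9 ± 3.71 in NSC and 10.4 ± 0.909 in NR (mean ± SD, n = 3), so the means of the 4 groups lay within the spread of the NSC libraries. *Lama5* held 96.4% ± 0.341 of that sum in NPC and 96.3% ± 0.869 in NPC(+), against 15.6% ± 1.54 in NSC and 36.1% ± 3.85 in NR, whereas *Lama1* held 1.59% ± 0.639, 1.9% ± 0.968, 67.9% ± 6.35 and 30.6% ± 18.9 in the same order. Shares of one sum move against each other by construction, and with 3 libraries a group no exact permutation test of a share can go below 0.10, so the shares are given as a description.

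**Figure D1:**
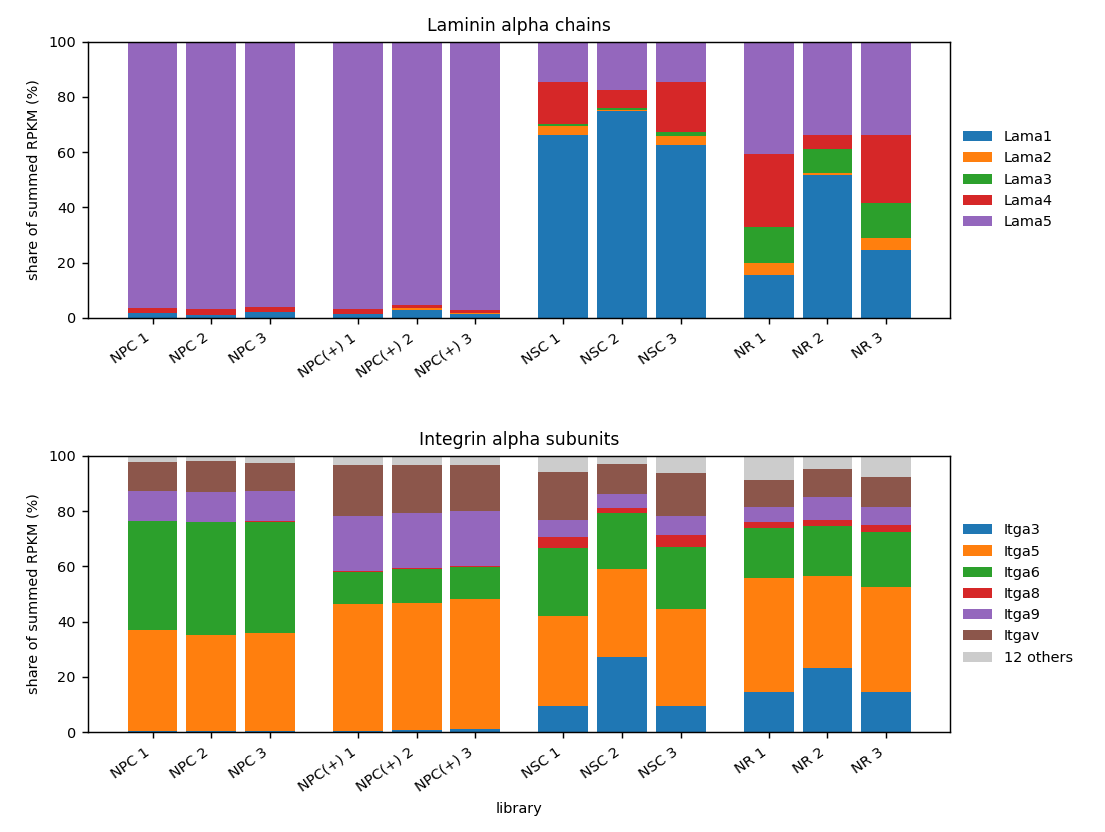
Share of the summed RPKM (percent, vertical axis) held by each laminin alpha chain (top) and by 6 of the 18 integrin alpha subunits (bottom, the rest in grey) in each of the 12 libraries. *Lama5* fills 95.4% to 97% of the alpha chain bars in NPC and NPC(+), *Lama1* fills 62.5% to 74.9% in NSC, and the *Itga6* part is 39.4% to 40.8% in NPC and 11.6% to 12.5% in NPC(+).

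*Lama4* (ENSMUSG00000019846, chr10:38965515-39110188), the alpha chain of vessel and nerve basement membranes, and *Lama2* (ENSMUSG00000019899, chr10:26980036-27619758), the chain of muscle and peripheral nerve, were both higher in NSC and NR than in NPC, and both were low in the libraries numbered 2. *Lama4* measured 1.79, 3.21 and 2.3 CPM in NPC and 2.32, 1.57 and 1.5 in NPC(+). The values were 27, 5.73 and 23.7 in NSC and 36.5, 6.06 and 29.1 in NR. Against NPC it was 8.07-fold higher in NSC (log2 fold change 3.01 ± 0.69 (SE), adjusted p = 0.00142) and 10.2-fold higher in NR (log2 fold change 3.35 ± 0.70 (SE), adjusted p = 5.95e-04). *Lama2* had no count in any NPC library and 0.29, 0.628 and 0.334 CPM in NPC(+), 7.27, 0.552 and 5.94 in NSC and 8.31, 0.936 and 7.02 in NR. The NPC(+) values rest on 1, 4 and 2 counts. NPC(+) did not pass the test against NPC (adjusted p = 0.271), and 4 of 19 alternatives called *Lama2* higher there. Set against the mean floor of 3 counts over the NPC libraries, its group mean was at least 11.3-fold higher in NSC (adjusted p = 0.00267) and at least 13.3-fold higher in NR (adjusted p = 0.00193). These bounds do not hold for each library, since NSC replicate 2, at 0.552 CPM, was below the floor of NPC replicate 3 (0.626 CPM). In NSC and in NR, the library numbered 2 had the lowest value of both genes and the lowest sum of the mesenchyme list given above. Without those libraries the log2 fold change of *Lama4* against NPC was 3.43 in NSC and 3.80 in NR. The part of mesenchymal RNA in these values was not tested.

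*Lama3* (ENSMUSG00000024421, chr18:12333819-12583013) encodes alpha-3, an alpha chain of the laminins of skin and other surface epithelia. It had 1 count in all in NPC and 1 in NPC(+), 1.12, 0.552 and 1.62 CPM in NSC and 16.1, 9.16 and 13.3 in NR, with every NR library above every NSC library. The ratio of pooled counts per effective library to NPC was 32.1 in NSC (exact 95% interval 5.65 to 1278, counting error only) and 354 in NR (63.3 to 13982). NR was 11.6-fold higher than NSC (log2 fold change 3.53 ± 0.36 (SE), adjusted p = 6.75e-06). *Lamb3*, a beta chain of the same epithelia, stayed under 5 CPM in every group and was 8.24-fold higher in NR than in NPC (log2 fold change 3.04 ± 0.42 (SE), adjusted p = 1.63e-05). It was also called 2.52-fold higher in NPC(+) than in NPC (log2 fold change 1.33 ± 0.55 (SE), adjusted p = 0.0719), at group means of 0.89 and 0.299 CPM. Beside these chains, the surface epithelium list summed to 2.51 to 3.55 CPM in NPC and NPC(+), 140.1, 223 and 156 in NSC and 744, 1009.9 and 574 in NR. Nearly all of that sum came from *Krt8*, *Krt18* and *Epcam*, while *Krt5* and *Krt14*, the keratins of basal skin cells, reached at most 0.59 CPM in a library. The part of epithelial or pluripotent cells in these values was not tested.

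The beta chains *Lamb1* and *Lamb2* changed in opposite directions in NPC(+). *Lamb1* (ENSMUSG00000002900, chr12:31265234-31329644), the beta chain of early basement membranes, measured 57.8, 63.8 and 61.4 CPM in NPC and 67.2, 80.6 and 75.9 in NPC(+). NSC had 107, 96.6 and 106 and NR 155, 155 and 125, and none of the 4 groups overlapped. NPC(+) was 1.23-fold higher than NPC (log2 fold change 0.30 ± 0.11 (SE), adjusted p = 0.0389). NSC was 1.7-fold higher (log2 fold change 0.76 ± 0.10 (SE), adjusted p = 1.19e-05) and NR 2.38-fold higher (log2 fold change 1.25 ± 0.10 (SE), adjusted p = 8.45e-08). The call in NPC(+) was lost without NPC(+) replicate 2 or without NPC(+) replicate 3. *Lamb2* (ENSMUSG00000052911, chr9:108479736-108490530), the beta chain of synapses and kidney filters, measured 28.2, 44.5 and 41.5 CPM in NPC and 24, 24.3 and 26.7 in NPC(+). The NSC libraries had 90.8, 73.2 and 85.8 and the NR libraries 68.5, 57.7 and 57.2. NPC(+) was 1.5-fold lower than NPC (log2 fold change -0.58 ± 0.16 (SE), adjusted p = 0.0122). NSC and NR were 2.22-fold and 1.62-fold higher than NPC (log2 fold change 1.15 ± 0.15 (SE), adjusted p = 1.05e-05 for NSC). NR was 1.36-fold lower than NSC (log2 fold change -0.45 ± 0.14 (SE), adjusted p = 0.0189). The summed RPKM of the 3 beta chains was 12.5 ± 1.7 in NPC and 11.8 ± 0.828 in NPC(+), against 24.2 ± 2.07 in NSC and 25.1 ± 2.56 in NR, and *Lamb1* held 49.8% ± 4.79 of it in NPC and 63.8% ± 1.85 in NPC(+).

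*Lamc1* (ENSMUSG00000026478, chr1:153218922-153332786), the gamma chain shared by most laminins, was the laminin chain with the highest RPKM in each group. It measured 154, 195 and 166 CPM in NPC and 190.5, 198 and 182 in NPC(+). The values were 143, 109.8 and 116 in NSC and 173, 144 and 141 in NR. NSC was 1.4-fold lower than NPC (log2 fold change -0.48 ± 0.12 (SE), adjusted p = 0.00215) and NR 1.24-fold higher than NSC (log2 fold change 0.31 ± 0.12 (SE), adjusted p = 0.039), although NSC and NR overlapped and 5 of 22 alternatives lost the latter call. *Lamc3* had no count in NPC or NPC(+) and at most 2.77 CPM in any library. In all, 3 of 11 laminin chains were called between NPC(+) and NPC (2 higher, 1 lower), 10 between NSC and NPC (8 higher, 2 lower), 10 between NR and NPC (9 higher, 1 lower) and 9 between NR and NSC (7 higher, 2 lower). These are 27.3%, 90.9%, 90.9% and 81.8% of the chains in that order, beside the background over all genes of 44.3%, 78.1%, 79.8% and 56.6%. Their median fitted log2 fold change was 0.30, 3.01, 3.35 and 0.49 in that order, or 0.15, 1.15, 3.04 and 0.49 with genes at the floor set to their bounds. The medians of all genes tested were 0.00, 0.20, 0.19 and 0.01.

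**Figure D2:**
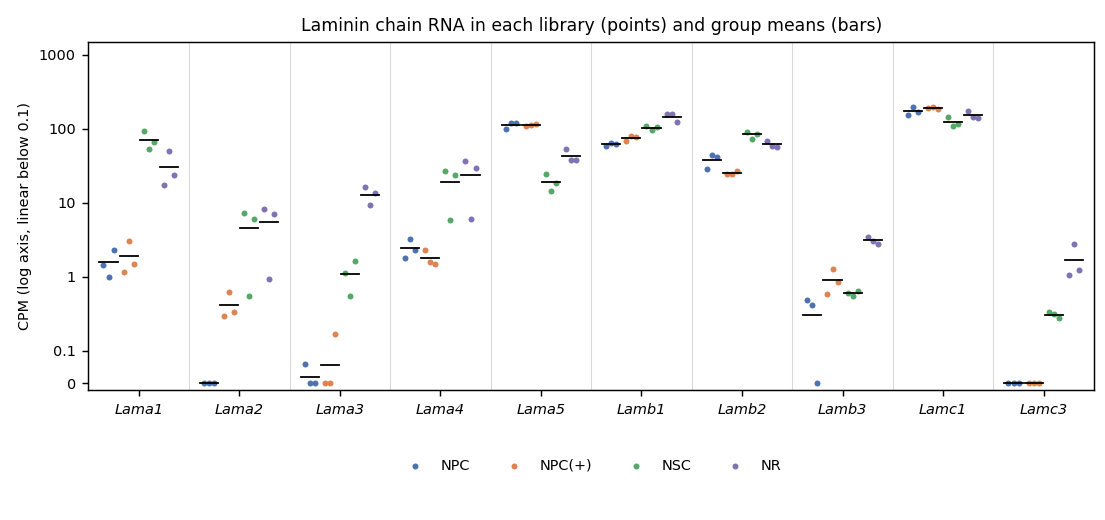
CPM of laminin chains (log axis, linear below 0.1) in each library, as points coloured by group with 3 points a group, and group means as black bars. *Lama1* and *Lama5* change places between the NPC groups and NSC, and *Lama2* and *Lama4* each have 1 low point in NSC and in NR, the libraries numbered 2.

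Of the integrin alpha subunits that bind laminin, *Itga6* was lower and *Itga3* was higher in NSC and NR than in NPC, and in NPC(+) *Itga6* was lower too. *Itga6* (ENSMUSG00000027111, chr2:71745616-71858416) encodes alpha-6, a laminin receptor used as a surface marker of neural stem cells. It measured 322, 354 and 321 CPM in NPC and 73, 80.2 and 70.6 in NPC(+). In NSC it stood at 89.5, 96.3 and 82.4 and in NR at 92.5, 94 and 84.1. All 9 libraries outside NPC were below all 3 NPC libraries. NPC(+) was 4.45-fold lower than NPC (log2 fold change -2.15 ± 0.09 (SE), adjusted p = 2.05e-09), NSC 3.72-fold lower (log2 fold change -1.89 ± 0.09 (SE), adjusted p = 3.17e-10) and NR 3.69-fold lower (log2 fold change -1.88 ± 0.09 (SE), adjusted p = 3.11e-10). NR and NSC overlapped (log2 fold change 0.01 ± 0.08 (SE), adjusted p = 0.917). Of the summed RPKM of all 18 alpha subunits, which was 91.5 ± 4.07 in NPC and 69.1 ± 2.05 in NPC(+), *Itga6* held 40.2% ± 0.72 and 11.9% ± 0.495. The 46 genes within 5 Mb of *Itga6* that had a mean log2 CPM over 3 shifted between NPC(+) and NPC by a median of -0.25 (log2) relative to all such genes, and those of its whole chromosome by -0.06.

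*Itga3* (ENSMUSG00000001507, chr11:95044474-95076801) encodes alpha-3, a laminin receptor of epithelia and of the developing cortex. It measured 1.55, 1.67 and 1.25 CPM in NPC and 2.32, 3.77 and 4.84 in NPC(+). NSC had 21.4, 81.7 and 22 and NR 47.1, 76.8 and 38.8. The NSC and NR libraries were all above the others, and the library numbered 2 was the highest of each. NSC was 27.1-fold higher than NPC (log2 fold change 4.76 ± 0.60 (SE), adjusted p = 7.54e-06) and NR 35.4-fold (log2 fold change 5.15 ± 0.60 (SE), adjusted p = 3.23e-06). Without the libraries numbered 2 of NSC and NR, the log2 fold changes were 3.78 for NSC and 4.76 for NR. NPC(+) had all 3 libraries above NPC but did not pass the test (log2 fold change 1.31 ± 0.79 (SE), adjusted p = 0.221), and 6 of 20 alternatives called it. NR and NSC did not pass either (log2 fold change 0.38 ± 0.41 (SE), adjusted p = 0.465), whereas with the number as a block it was a log2 fold change of 0.58 (adjusted p = 0.0572). *Itga3* was also called higher in NR than in NSC without NSC replicate 2 (1.31) and without the libraries numbered 2 (0.98). *Itga7* (ENSMUSG00000025348, chr10:128933818-128958282), the laminin receptor of muscle, stayed at or under 3.39 CPM in every library and was 2.6-fold higher in NSC (log2 fold change 1.38 ± 0.45 (SE), adjusted p = 0.0139) and 3.11-fold higher in NR than in NPC.

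The shared beta subunit, *Itgb1* (ENSMUSG00000025809, chr8:128685654-128733200), was the member with the highest RPKM in every group. It measured 750.3, 659.8 and 630.5 CPM in NPC and 783, 832 and 719 in NPC(+). The NSC libraries had 676, 982 and 704 and the NR libraries 639.7, 816 and 556, and each group overlapped with every other. No comparison passed the test in the reported fit. The log2 fold changes were 0.19 ± 0.15 (SE) for NPC(+), 0.21 ± 0.15 for NSC and -0.02 ± 0.15 for NR against NPC. The sign for NR turned under 3 other scalings or tools. Without NSC replicate 1 or without NR replicate 2 *Itgb1* was called lower in NR than in NSC (log2 fold change -0.36 and -0.40). With no filter it was called there too (-0.30), as in a block fit of NR and NSC alone (-0.27). Against NPC it was called higher in NPC(+) in a fit of these groups alone (0.24). In NSC it was called higher with no filter (0.30) or at least 10 counts in every library (0.29). Without the libraries numbered 2 it was called higher in NPC(+) (0.21) and lower in NR (-0.22). *Itgb1* held 88.6% ± 1.47 of the summed beta subunit RPKM in NPC and 94.4% ± 0.569 in NPC(+), against 86.8% ± 3.75 in NSC and 80.9% ± 3.57 in NR. *Itgb4* (ENSMUSG00000020758, chr11:115974709-116008412), the partner of alpha-6 in the hemidesmosomes that fix epithelia to their basement membrane, measured 0.656, 0.419 and 0.835 CPM in NPC and 0.579, 0.785 and 1.0 in NPC(+). The values were 1.7, 1.38 and 1.71 in NSC and 7.27, 5.29 and 5.42 in NR. It was 2.54-fold higher in NSC than in NPC (log2 fold change 1.35 ± 0.32 (SE), adjusted p = 0.00167), 9.45-fold higher in NR (log2 fold change 3.24 ± 0.30 (SE), adjusted p = 3.43e-07) and 3.72-fold higher in NR than in NSC (log2 fold change 1.89 ± 0.23 (SE), adjusted p = 3.18e-05).

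Among the members called higher in NPC(+), the rise was largest for *Itga8* (ENSMUSG00000026768, chr2:12106632-12301922), which encodes alpha-8, a receptor for nephronectin, fibronectin and other ligands with the RGD motif. Its values were 0.418, 0.279 and 0.209 CPM in NPC and 2.03, 2.2 and 1.67 in NPC(+). In NSC it stood at 12.7, 7.87 and 12.8 and in NR at 8.74, 9.39 and 7.92. NPC(+) lay between NPC and the libraries labelled NSC and NR with no overlap on either side. NPC(+) was 5.65-fold higher than NPC (log2 fold change 2.5 ± 0.41 (SE), adjusted p = 2.97e-04). NSC was 32-fold higher (log2 fold change 5.0 ± 0.32 (SE), adjusted p = 8.60e-09) and NR 24.9-fold higher (log2 fold change 4.64 ± 0.33 (SE), adjusted p = 1.86e-08). The reads behind it were few in the first groups, 7, 2 and 1 counts in NPC and 7, 14 and 10 in NPC(+). *Itga4* (ENSMUSG00000027009, chr2:79255426-79333123), a receptor for fibronectin and VCAM-1, went the other way, with 5.19, 5.72 and 4.59 CPM in NPC and 2.03, 1.1 and 2.17 in NPC(+). NSC had 0.917, 1.21 and 0.823 and NR 0.739, 1.87 and 1.43. It was 3.0-fold lower in NPC(+) (log2 fold change -1.58 ± 0.38 (SE), adjusted p = 0.0044), 5.28-fold lower in NSC (log2 fold change -2.4 ± 0.33 (SE), adjusted p = 1.63e-05) and 3.73-fold lower in NR (log2 fold change -1.9 ± 0.33 (SE), adjusted p = 1.13e-04) than in NPC.

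After *Itga6*, the alpha subunits with the highest RPKM in NPC were *Itga5*, *Itga9* and *Itgav*. *Itga9* (ENSMUSG00000039115, chr9:118606690-118901003), a receptor for tenascin-C and other ligands, measured 73.9, 78.1 and 74.1 CPM in NPC and 105, 109 and 102 in NPC(+). The NSC libraries had 18.6, 20.5 and 22.1 and the NR libraries 23.7, 37 and 23.5. It was 1.4-fold higher in NPC(+) (log2 fold change 0.48 ± 0.15 (SE), adjusted p = 0.0192) and 3.7-fold and 2.68-fold lower in NSC and NR than in NPC (log2 fold change -1.89 ± 0.15 (SE), adjusted p = 7.24e-08 for NSC). *Itga5* (ENSMUSG00000000555, chr15:103344286-103366763), the fibronectin receptor, measured 164, 166 and 154 CPM in NPC and 157, 160.0 and 155 in NPC(+). The values were 64.8, 82.6 and 70.7 in NSC and 114, 94.3 and 88.3 in NR, which put NSC 2.22-fold below NPC (log2 fold change -1.15 ± 0.11 (SE), adjusted p = 2.97e-07) and NR 1.64-fold below it (log2 fold change -0.71 ± 0.11 (SE), adjusted p = 3.03e-05). *Itgav*, the alpha subunit of the vitronectin receptors, had group means of 105 ± 10.3 CPM in NPC and 131 ± 7.62 in NPC(+), against 68.1 ± 7.44 in NSC and 59.1 ± 4.8 in NR (SD, n = 3). It was 1.24-fold higher in NPC(+) (log2 fold change 0.31 ± 0.10 (SE), adjusted p = 0.0299), a call lost without NPC replicate 3, and 1.54-fold and 1.78-fold lower in NSC and NR. In NPC(+), with less *Itga6*, the share of the alpha subunit sum held by *Itga5* was 46.1% ± 0.617 against 35.8% ± 0.913 in NPC, while its own RNA did not pass the test (log2 fold change -0.04 ± 0.11 (SE), adjusted p = 0.818).

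The beta subunits *Itgb8* and *Itgb5*, both partners of alpha-v, were lower in NPC(+), where *Itgav* was higher. *Itgb8* (ENSMUSG00000025321, chr12:119158022-119238802), whose product with alpha-v activates TGF-beta in the developing brain, measured 25, 27.8 and 25 CPM in NPC and 9.84, 8.17 and 8.67 in NPC(+). In NSC it stood at 129, 105 and 121 and in NR at 16.2, 48.6 and 36.6. NPC(+) was 2.95-fold lower than NPC (log2 fold change -1.56 ± 0.33 (SE), adjusted p = 0.00205) and NSC 4.56-fold higher (log2 fold change 2.19 ± 0.28 (SE), adjusted p = 7.02e-06). NR was 3.47-fold lower than NSC (log2 fold change -1.79 ± 0.26 (SE), adjusted p = 1.00e-04) and overlapped with NPC, and without the libraries numbered 2 the log2 fold change from NSC to NR was -2.20. Thus NPC(+) and NSC lay on opposite sides of NPC for *Itgb8*, with no library of either in the range of NPC. *Itgb5* (ENSMUSG00000022817, chr16:33829665-33949338), which pairs with alpha-v to bind vitronectin, measured 60.3, 69.1 and 65.7 CPM in NPC and 35.3, 34.5 and 36 in NPC(+). NSC had 64.3, 45.7 and 66.2 and NR 121, 95.4 and 104. NPC(+) was 1.84-fold lower than NPC (log2 fold change -0.88 ± 0.14 (SE), adjusted p = 2.67e-04). The 328 other genes of chromosome 16 with a mean log2 CPM over 3 shifted in the same comparison, relative to all such genes, by a median of -0.37 (log2), and the 64 within 5 Mb by -0.37. For *Itgb8*, the 365 other genes of chromosome 12 so counted shifted by a median of -0.22, and the 8 within 5 Mb by 0.07. For *Lamb1*, on the same chromosome, these medians were -0.23 and -0.08. The part of such shifts in the values of these 3 genes was not tested. *Itgb3* (ENSMUSG00000020689, chr11:104608000-104670476), the beta subunit of the platelet and endothelial vitronectin receptors, measured 0.537, 0.698 and 0.835 CPM in NPC and 0.29, 0.314 and 1.67 in NPC(+). The NSC libraries had 2.6, 2.93 and 2.47 and the NR libraries 6.71, 3.94 and 4.36, and was 4.1-fold and 7.62-fold higher in NSC and NR than in NPC (log2 fold change 2.93 ± 0.44 (SE), adjusted p = 3.35e-05 for NR). The megakaryocyte and platelet list summed to 1.95 to 5.81 CPM over all libraries, and the endothelium list to 0.626 to 11.6 outside NR and 135, 75.1 and 97.2 in NR, where *Pecam1* held most of it and *Cdh5* was at most 1.54 CPM.

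**Figure D3:**
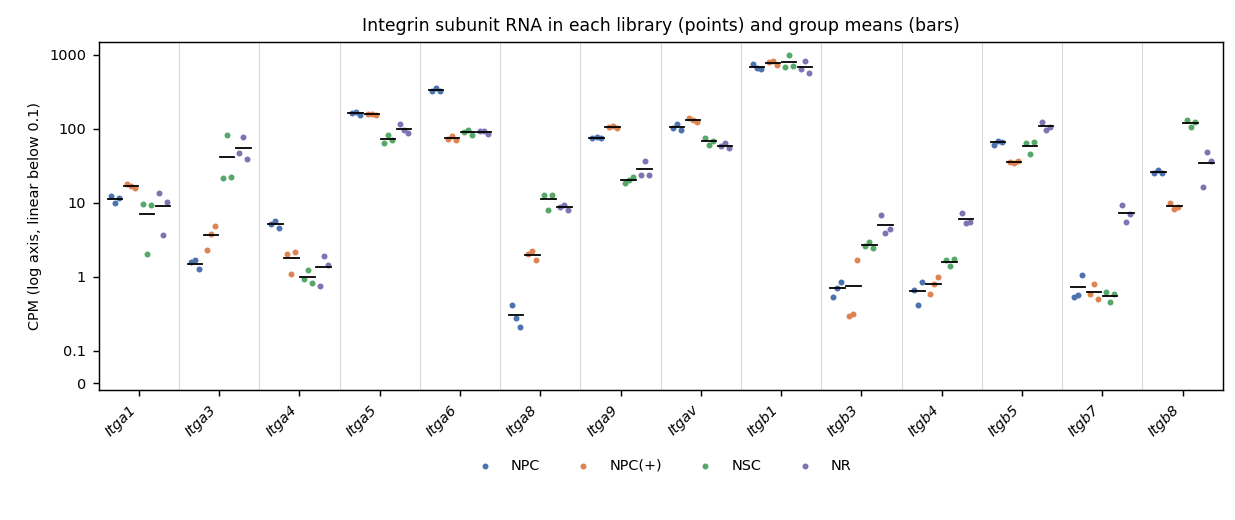
CPM of the 14 integrin subunits with a group mean of at least 5 CPM (log axis, linear below 0.1) in each library, as points coloured by group, with group means as black bars. The NPC points of *Itga6* lie above all others, the NPC(+) points of *Itga8* lie between NPC and the libraries labelled NSC and NR, and those of *Itgb8* lie below NPC while NSC lies above it.

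The integrin subunits known mainly from blood cells stayed at or under 9.17 CPM in every library. *Itgb7*, *Itgal*, *Itgae*, *Itgam* and *Itgb2* were called higher in NR than in NSC, as were 30.0% of all genes. *Itgb7* (ENSMUSG00000001281, chr15:102215995-102231944), a beta subunit of lymphocytes, measured 0.537, 0.558 and 1.04 CPM in NPC and 0.579, 0.785 and 0.50 in NPC(+). The values were 0.626, 0.449 and 0.579 in NSC and 9.17, 5.55 and 7.02 in NR. It was 11-fold higher in NR than in NPC (log2 fold change 3.46 ± 0.33 (SE), adjusted p = 4.26e-07) and 12.8-fold higher than in NSC (log2 fold change 3.68 ± 0.28 (SE), adjusted p = 1.06e-06), with no overlap. *Itgal*, *Itgae* and *Itgb2*, also leukocyte subunits, were under 5 CPM in every group and were called higher in NR than in NPC as well. Against NSC, *Itgal* was 6.42-fold higher (adjusted p = 1.07e-04), while the *Itgb2* call (adjusted p = 0.0947) was lost under 12 of 20 alternatives. *Itgam* was called higher in NSC and NR than in NPC and in NR than in NSC, but 68.7% of its exon bases are shared with an overlapping gene model on the same strand, so its counts are uncertain. The leukocyte list summed to 2.03 to 6.05 CPM in the other 9 libraries and 19.2, 11.6 and 14.7 in NR, mostly from *Laptm5* and *Cd68*. *Ptprc*, which encodes the common leukocyte antigen CD45, was at most 0.369 CPM in an NR library. The pluripotency genes, given above, were also higher in NR, and the part of either in the *Itgb7* values was not tested. Of the collagen receptors, *Itga1* and *Itga11* followed *Lama2* and *Lama4* in being lowest in the libraries numbered 2, with 9.44, 2.0 and 9.33 CPM in NSC and 13.3, 3.61 and 10.3 in NR for *Itga1* and 3.92, 1.83 and 3.72 and 7.08, 2.52 and 5.2 for *Itga11*. Against NPC, *Itga1* was called in no group by the fit with no block, and the pooled count ratio of *Itga11* was 18.9 in NSC (exact 95% interval 8.01 to 58.5) and 26.2 in NR (11.1 to 81.2).

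**Figure D4:**
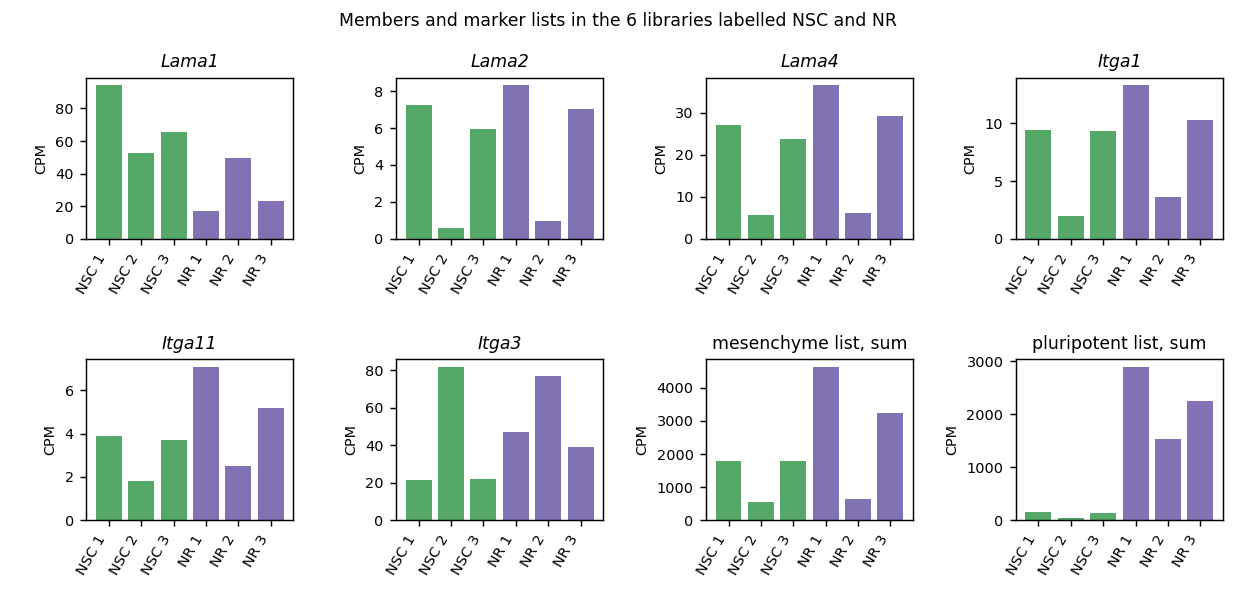
CPM in the 3 libraries labelled NSC and the 3 labelled NR (bars, 1 a library) for 6 members and for the summed mesenchyme and pluripotent marker lists. In each group the library numbered 2 is lowest for *Lama2*, *Lama4*, *Itga1*, *Itga11* and the mesenchyme list and highest for *Itga3*, and the pluripotent list is high in NR.

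In all, 7 of 22 integrin subunits tested were called between NPC(+) and NPC (3 higher, 4 lower), 13 between NSC and NPC (8 higher, 5 lower), 18 between NR and NPC (12 higher, 6 lower) and 11 between NR and NSC (10 higher, 1 lower). That is 31.8%, 59.1%, 81.8% and 50.0% of the subunits tested, beside 44.3%, 78.1%, 79.8% and 56.6% of all genes. Their median log2 fold change was 0.32, 0.08, 0.87 and 0.45 in that order. Of all 33 members tested, the 3 libraries of one group did not overlap with the 3 of the other for 14 in NPC(+) against NPC (background 52.7% of genes), 26 in NSC against NPC (77.3%), 28 in NR against NPC (77.8%) and 17 in NR against NSC (56.7%). *Itga8* and *Itga6* were the members called with a change of more than 4-fold in NPC(+), 1 higher and 1 lower, a size that 5.79% of all genes reached (3.87% higher and 1.92% lower). In NSC against NPC, 12 members were more than 4-fold higher and 2 lower (background 25.4%, 19.5% higher and 5.90% lower), and in NR against NPC 15 were higher and 0 lower (28.1%, 22.0% and 6.03%). Between NR and NSC, 5 were more than 4-fold higher and 0 lower (7.46%, 7.34% and 0.124%). Same-numbered NR and NSC libraries deviated together, and with the number as a block *Itga3*, *Itga11* and *Itgav* were also called between NR and NSC (adjusted p = 0.0572, 0.0553 and 0.0986), the last of which was not called in a block fit of NR and NSC alone (adjusted p = 0.162). The first of these block fits left the calls of the other members between NR and NSC as they were.

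**Figure D5:**
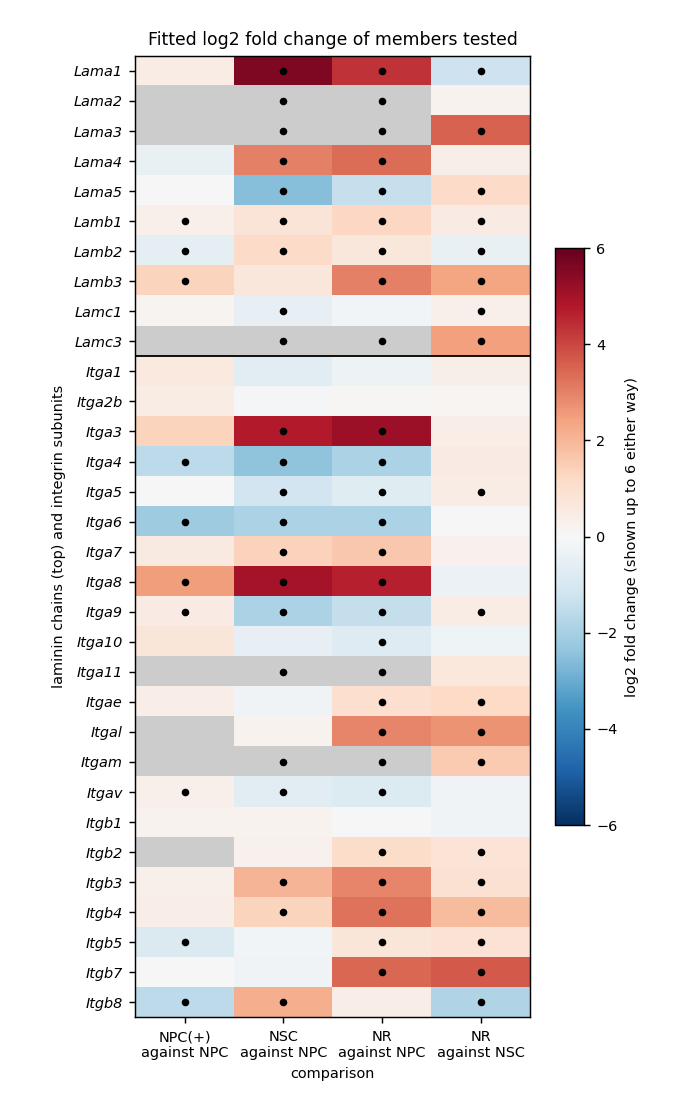
Fitted log2 fold change of members tested in each of 4 comparisons (colour, red higher and blue lower in the first group named, shown up to 6 either way), with a dot where the member was called and grey where a group was at the floor of 3 counts. In the NPC(+) column *Itga6*, *Itga4*, *Itgb8* and *Itgb5* are blue and *Itga8* is red, while the NSC and NR columns hold more reds.

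The genes that work with the members were counted in 3 lists, to be read beside the share of all genes called, which was 44.3% in NPC(+) against NPC, 78.1% in NSC against NPC, 79.8% in NR against NPC and 56.6% in NR against NSC. Of 17 basement membrane partners and other laminin receptors, 7 higher and 3 lower were called in NPC(+) against NPC, 12 higher and 4 lower in NSC against NPC, 12 higher and 4 lower in NR against NPC and 8 higher and 6 lower in NR against NSC, with median log2 fold changes of 0.45, 2.13, 2.57 and 0.28. *Col4a1* and *Col4a2*, which encode the collagen IV network that laminin sheets are joined to, rose in NPC(+) (2.34 ± 0.14 and 1.81 ± 0.30 on the log2 scale, ± SE), from 21.8, 27.3 and 26.5 to 117, 141 and 120.4 CPM for *Col4a1*. In NSC, *Col18a1*, a proteoglycan collagen of basement membranes, was higher by 6.78 ± 0.13, and in NR by 7.12 ± 0.13, where *Nid2*, a nidogen that bridges laminin and collagen IV, was higher by 6.81 ± 0.19. Of 12 other integrin ligands, 2 higher and 2 lower were called in NPC(+), 8 higher and 2 lower in NSC and 8 higher and 2 lower in NR against NPC, and 2 higher and 1 lower in NR against NSC, with medians of 0.24, 1.80, 1.80 and -0.06. *Tnc*, which encodes tenascin-C, a ligand of alpha-9 and alpha-v integrins, measured 873, 989.9 and 876 CPM in NPC and 197, 234 and 204 in NPC(+). In NSC it stood at 83, 37.4 and 84 and in NR at 47.9, 31.8 and 39.7, and fell by 2.11 ± 0.24 (log2, SE) in NPC(+). *Spp1*, osteopontin, rose in NPC(+) by 1.62 ± 0.44. *Thbs1*, thrombospondin-1, was higher in NSC by 7.29 ± 0.29 and in NR by 7.16 ± 0.29. Of 24 integrin adaptors and signalling genes tested, 6 higher and 3 lower were called in NPC(+), 11 higher and 6 lower in NSC and 11 higher and 8 lower in NR against NPC, and 8 higher and 4 lower in NR against NSC, with medians of 0.14, 0.21, 0.23 and 0.01. In NPC(+) *Tns3*, a tensin that binds integrin tails, rose by 1.62 ± 0.16, from 17.1, 18 and 17.7 to 46.6, 58.7 and 56 CPM, and *Fermt3*, the kindlin of blood cells, fell by 1.68 ± 0.49 from 2.21, 1.53 and 2.3 to 0.29, 0.785 and 0.667 CPM. *Cd9*, a tetraspanin that binds integrins, fell by 3.77 ± 0.17 in NSC against NPC.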

How the data were processed

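RNA was extracted from 12 cell samples, 3 in each of 4 groups, amplified from total RNA with a SMART-Seq v4 kit and sequenced. The authors deposited 1 table of counts per gene, whole numbers with no normalization, and the submitters' processing notes list STAR 2.6, RSEM 1.1.14 and mm10 without saying which tool gave the counts. The strand setting is not given in the sources used here, and a comparison of gene levels depends on how reads of overlapping genes were assigned. Samples were grouped by their labels, which give the replicates as made on different days.

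Genes were fitted here in R 4.3.3 with edgeR 4.0.16 (TMM scaling, filterByExpr, glmQLFit and glmQLFTest, 12 libraries in 1 fit, no block), and p-values were adjusted by Benjamini-Hochberg over the 17003 genes that passed the filter. A gene was called at an adjusted p under 0.1. SE was taken as |log2 fold change| over the root of the F statistic. CPM use effective library sizes, and RPKM divide them by the union exon length in GENCODE M21, build GRCm38. Folds against a group at 0 use a floor of 3 counts in each library. Library totals ran from 3407066 to 43095688 counts, so that low genes are least precise in NPC(+). Intervals and floors cover counting error only. The fit was tested on simulated data: for NPC(+) against NPC with 16301 genes, 100 of 100 rises and 100 of 100 falls of 4-fold were called. The changed genes were drawn from those with a mean over 5 CPM, and all genes had the same simulated spread. The simulation therefore does not cover lower genes, smaller changes or genes with a wider spread. How many unchanged genes were called in it is not given here. DESeq2 1.42.0 and other scalings, filters and sets of libraries were tried as alternatives.

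Same-numbered NR and NSC libraries deviated together (correlations of deviations from the group means of 0.229, 0.49 and 0.296), which pairs them by the data only, and in the comparisons with NPC the correlations were -0.0472 to 0.0475. The members were taken by symbol, and the members, the pathway lists, the marker lists and the rule for genes given by library were chosen with earlier results of these data known. Examples from the pathway lists are among the largest called changes of each list whose groups were over the floor. Promoter sequences come from RefSeq (GRCm38.p6), in which 23 members had an entry and *Itga6* and *Lama1* had none. Some genes that the rule for values by library would name are not reported here, and the counts of members called include them.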

Additional observations from a re-analysis of the deposited data

How the results depend on the processing

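Members called in a comparison, and the best known laminin trimers and laminin receptors, were followed under the alternatives in which they passed the filter. These were 19 genes in NPC(+) against NPC, 24 in NSC against NPC, 30 in NR against NPC and 26 in NR against NSC. In that order, 358 of 383, 482 of 485, 573 of 603 and 493 of 550 of their tests kept direction and side of the threshold. The other uncalled members, which an alternative could call, are not in these counts. In NPC(+), the calls of *Itga6* (log2 fold change -2.22 to -2.07), *Itga8* (2.37 to 3.54) and *Itgb8* (-1.60 to -1.49) held under every alternative that tested the gene. So did those of *Itgb5* (-0.91 to -0.81), *Itga4* (-1.82 to -1.30) and *Lamb2* (-0.75 to -0.46). *Itga8* and *Itga4* did not pass the filter of at least 10 counts in every library, so that alternative did not test them. The *Lamb3* call in NPC(+) was lost under 5 of 18. *Itga10*, counted among the members lower in NR than in NPC (adjusted p = 0.0916), lost that call under 14 of 19. Of its exon bases, 33.5% are shared with an overlapping gene model on the same strand. Depth limits members under about 5 CPM most.

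Members called higher in NPC(+) numbered 5, and 3 with at least 10 counts in every library, where fewer genes are tested, 8 in a fit of these groups alone, 9 without the NSC and NR libraries numbered 2, and 1 with a fold change over 4. The 5 called lower became 1 with a fold change over 4. In NSC against NPC the 16 higher became 4 with at least 10 counts, and the 7 lower became 2 with a fold change over 4. In NR against NPC the 21 higher became 4 with at least 10 counts, and the 7 lower became 0 with a fold change over 4. In NR against NSC the 17 higher became 6 with at least 10 counts, 10 after thinning to the smallest library and 5 with a fold change over 4, and the 3 lower became 5 with no filter or without the libraries numbered 2 and 0 with a fold change over 4. The cause was not tested where fewer genes or libraries do not give it. Apart from the 4-fold cut, the shares of all genes called under these alternatives are not given here.

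Leaving out 1 replicate at a time gave 3 to 6 higher and 5 to 6 lower in NPC(+), 16 to 16 and 7 to 8 in NSC, 19 to 21 and 6 to 9 in NR against NPC, and 13 to 17 and 3 to 5 in NR against NSC. The 3 higher in NPC(+) came without NPC replicate 3, NPC(+) replicate 2 or NPC(+) replicate 3, and the 5 lower in NR against NSC without NSC replicate 2 or NR replicate 2.

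The results that changed sign passed no test in the reported fit. They were *Lama1* in NPC(+) (-0.11 to 0.64 leaving out 1 replicate), *Lama5* in NPC(+) (-0.0608 to 0.0444), *Lama2* in NR against NSC (-0.33 to 0.72), *Lama4* in NR against NSC (-0.12 to 0.79), *Itga6* in NR against NSC (-0.0687 to 0.0574, and -0.0612 with no filter, -0.0321 in the fit of these groups alone and -0.10 after thinning), *Itgb1* in NSC (-0.0187 without the libraries numbered 2) and *Itgb1* in NR (-0.18 to 0.0738, and 0.0383 with RLE factors, 0.0661 with upper-quartile factors, 0.12 with at least 10 counts and 0.0443 with DESeq2). The integrin median in NSC was -0.57 with at least 10 counts and -0.11 in the fit of these groups alone, and in NR it was -0.39 with at least 10 counts. Of these, *Itgb1* was called in NR at -0.22 and *Lama4* in NR against NSC at 0.37 without the libraries numbered 2, and *Itgb1* was called in NSC at 0.30 with no filter and 0.29 with at least 10 counts.

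With the replicate number as a block, *Itga3* (0.58, adjusted p = 0.0572), *Itga11* (0.61, adjusted p = 0.0553) and *Itgav* (-0.21, adjusted p = 0.0986) were also called between NR and NSC, and the block changed no other call there. In a block fit of NR and NSC alone, added after seeing the data, as was leaving out the libraries numbered 2, *Itga6* was at -0.0313, *Itgb1* at -0.27 (adjusted p = 0.0590) was called, and *Itgb2* at 0.79 (adjusted p = 0.114) and *Itgav* at -0.25 (adjusted p = 0.162) were not. In the comparisons with NPC, where samples share only a number, the block gave 7 higher and 5 lower in NPC(+), 16 and 8 in NSC and 21 and 6 in NR. There *Itga1* was called lower in NSC (-0.85, adjusted p = 0.0432). *Lama2* (adjusted p = 0.0233) and *Itga3* (adjusted p = 0.0753) were called higher in NPC(+), and *Itga10* was not called in NR (adjusted p = 0.121).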

Other observations

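*Ilk*, which encodes integrin-linked kinase and is among the integrin adaptor genes, was at 0.279 to 1.26 CPM over the 12 libraries, and was named after its values were seen.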
